A study of Homo sapiens with 9 samples.

Results

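Broad open regions are stretches of at least 1500 bp in which peaks of accessible chromatin from Jurkat cells ran together. They were chosen by their merged width alone: the peaks of 4 deposited lists on the autosomes, X and Y were joined wherever they overlapped or touched, and the 472 regions of 1500 bp or more, of 40703 in all, were kept. They were 1.16% of the regions and held 5.30% of the covered length, 0.878 Mb of 16.6 Mb. Because width selected them, their widths are given as a description, and a wider region also offers more bases to a peak or a transcription start site (TSS), which touches every count of overlaps below.

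FAIRE-seq (formaldehyde-assisted isolation of regulatory elements) sequences the DNA that formaldehyde does not hold to nucleosomes. The series has 9 samples of Jurkat, a line grown from 1 human T cell leukaemia: NS (not stimulated), ST (stimulated for 4 h with PMA and ionomycin), SW (stimulated in the same way, then rested for 1 day after the stimulus was withdrawn) and RS (rested, then stimulated again for 2 h), each with DMSO or with 15 μM rottlerin given 1 h before, and a total input library. Lists of 4 samples were used, those labelled NS DMSO, SW DMSO, NS rottlerin and SW rottlerin, while the remaining 5 samples were not analysed here. The sample labels and the study's methods differ on these lists: the methods describe peaks called on the NS, ST, SW and RS samples with DMSO, and no list of a rottlerin sample. Joining all peaks gave 40731 regions before the limit to these chromosomes, and the methods give that same total for the pooled DMSO samples. The lists labelled rottlerin may thus be lists of other DMSO samples, and neither source says which list would belong to which sample. The lists are therefore named by their labels throughout, and no difference between them is read as an effect of rest or of rottlerin. Each list comes from 1 library, so no difference can be set against a spread between replicates, no test between lists was possible and no p-values are given. Intervals are 95% Wilson intervals and cover counting error only. The deposited lists do not give read depth, which is unknown here.

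The labelled cell type was checked with marker genes. A merged region of any width lay within 1 kb of a TSS in 7 of 10 T cell markers, 2 of 8 B cell markers, 1 of 8 myeloid markers and 1 of 8 epithelial and liver markers, and none of these genes had a broad region of either kind. Over all 19785 coding genes, 9884 (50.0%) had such a merged region, so with sets this small the check is coarse. By list, the T cell markers with a region numbered 6, 5, 5 and 6.

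Most open regions are short, the length of DNA left free by the loss of a nucleosome or a few. Longer ones are known at the promoters of genes that are transcribed in nearly every cell, where the DNA before and after the start is kept open, and at groups of enhancers that lie side by side and hold the genes of a cell's identity or of its response to a stimulus in an active state. In T cells, AP1 (the FOS and JUN dimer), NFAT, RUNX and ETS factors are known to bind such enhancers.

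The DNA at the heart of 9 broad regions is printed here because the members fall into sets of very different base composition. Each run is 150 bp of the forward strand of GRCh37 (hg19), at or within 39 bp of the middle of the part that most lists shared, with every CpG dinucleotide in capitals. Those in introns were taken from PTPRC (chr1:198651057-198651206), RUNX1 (chr21:36399472-36399621), BACH2 (chr6:90790829-90790978) and NLK (chr17:26501154-26501303). Those from regions over a coding TSS, none of which holds the canonical TSS itself since UTRs were avoided, were taken from CD69 (chr12:9913806-9913955), EGR1 (chr5:137800595-137800744), HNRNPL (chr19:39340627-39340776), CDK16 (chrX:47077339-47077488) and TUBA1B (chr12:49524927-49525076), and they lie 309, 424, 1, 592 and 102 bp from it.
PTPRC intron: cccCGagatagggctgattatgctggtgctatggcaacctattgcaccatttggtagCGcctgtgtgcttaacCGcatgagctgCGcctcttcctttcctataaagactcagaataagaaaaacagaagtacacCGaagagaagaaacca
RUNX1 intron: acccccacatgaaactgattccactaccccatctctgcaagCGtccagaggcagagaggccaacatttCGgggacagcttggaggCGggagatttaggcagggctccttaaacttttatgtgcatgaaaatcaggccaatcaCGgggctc
BACH2 intron: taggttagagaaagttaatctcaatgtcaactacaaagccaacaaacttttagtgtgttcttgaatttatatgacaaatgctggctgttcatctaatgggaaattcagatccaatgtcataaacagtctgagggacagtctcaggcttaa
NLK intron: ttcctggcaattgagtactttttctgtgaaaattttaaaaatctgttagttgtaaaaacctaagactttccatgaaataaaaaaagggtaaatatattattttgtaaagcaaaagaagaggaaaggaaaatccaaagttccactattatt
CD69 region: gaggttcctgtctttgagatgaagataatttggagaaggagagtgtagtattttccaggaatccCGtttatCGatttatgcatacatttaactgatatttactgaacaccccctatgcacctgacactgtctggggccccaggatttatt
EGR1 region: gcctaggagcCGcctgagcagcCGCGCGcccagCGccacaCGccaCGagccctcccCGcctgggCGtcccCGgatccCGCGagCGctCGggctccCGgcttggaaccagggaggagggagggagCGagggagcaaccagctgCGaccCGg
HNRNPL region: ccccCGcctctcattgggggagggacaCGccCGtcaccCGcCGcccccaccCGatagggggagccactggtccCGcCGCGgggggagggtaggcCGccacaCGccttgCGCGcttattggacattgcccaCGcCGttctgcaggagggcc
CDK16 region: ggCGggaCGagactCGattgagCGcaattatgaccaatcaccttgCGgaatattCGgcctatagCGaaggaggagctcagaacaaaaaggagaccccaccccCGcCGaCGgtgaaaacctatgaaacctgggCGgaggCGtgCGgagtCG
TUBA1B region: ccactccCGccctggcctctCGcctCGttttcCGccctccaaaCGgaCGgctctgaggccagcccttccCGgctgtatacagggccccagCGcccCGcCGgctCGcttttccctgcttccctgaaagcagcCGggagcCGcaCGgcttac

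These runs differed in the way the sets do. The NLK and BACH2 runs held 0 CpG, with G + C of 26.7% and 36.0%, and the run at CD69, whose product is an early surface marker of T cell activation, held 2 CpG at 41.3%. The runs at EGR1 (an early response transcription factor), HNRNPL (an RNA-binding splicing regulator), CDK16 (a cyclin-dependent kinase) and TUBA1B (an alpha-tubulin) held 18, 15, 14 and 14 CpG. PTPRC and RUNX1 lay between these, with 5 and 4.

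Merged widths ran from 1500 to 4073 bp with a median of 1758 bp. Of the 472 regions, 118 reached 2000 bp, 22 reached 2500 bp and 4 reached 3000 bp. Just inside the limit, the regions near KIF2C (a mitotic kinesin), at RCOR3 (a corepressor subunit) and at CDT1 (a replication licensing factor) were each 1500 bp wide. Just outside it lay the regions at SERPINB8 and ZNF143, at 1499 and 1498 bp.

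The widest region, of 4073 bp, lay at chr1:199151191-199155263 in an intron of a long non-coding RNA, and the nearest coding TSS, that of PTPRC, was 542964 bp away. The second, of 3379 bp, lay inside PTPRC itself (chr1:198649712-198653090). PTPRC encodes CD45, the phosphatase that sets the activity of LCK at the T cell receptor. It was followed by a region of 3316 bp over the shared start of RNASE4 and ANG, 2 secreted ribonucleases, and 1 of 3209 bp over the TSS of ZFP36L1, which encodes a protein that binds AU-rich elements and speeds mRNA decay. A region of 2970 bp lay in an intron of BACH2, a repressor that restrains effector differentiation of lymphocytes. The next were at PKM (a glycolytic enzyme) with 2869 bp, KBTBD2 (a ubiquitin ligase adaptor) with 2863 bp, SEPTIN7 (a cytoskeletal GTPase) with 2815 bp, in an intron of a transcript 55095 bp from the CFAP418 TSS with 2811 bp, and at CYTH1 (an ARF exchange factor) with 2810 bp.

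The width was seldom that of 1 peak seen in every list. A single peak of 1500 bp or more was present in all 4 lists in 26 regions, in 3 lists in 31, in 2 lists in 60 and in 1 list in 262, and in 93 regions no list held such a peak, so that the width came from joining lists. The list labelled SW rottlerin held 235 such peaks, against 104 in the list labelled NS DMSO, 101 in that labelled SW DMSO and 139 in that labelled NS rottlerin. It was the only list with such a peak in 139 regions, against 47, 29 and 47 for the others in the same order. It was also the longest list, with 30409 peaks on these chromosomes against 18977, 20132 and 23835. The median width of all its peaks was 280 bp against 265, 265 and 264 bp. With the same number of highest-scoring peaks taken from every list, 426 regions reached 1500 bp, and without the SW rottlerin list 287 did.

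The covered length differed between lists in most regions. Where a list had a peak, its peaks covered a median of 1003 bp of the region in the NS DMSO list, 994 bp in the SW DMSO list, 1072 bp in the NS rottlerin list and 1523 bp in the SW rottlerin list, which is 55.2%, 55.2%, 61.1% and 87.5% of the width. Where all 4 lists had a peak, in 376 regions, the longest and the shortest covered length differed by a median of 3.03 times, and by 2 times or more in 266 regions. The part covered in all 4 lists at once had a median of 458 bp (interquartile range 247 to 900 bp), or 24.1% of the width, and it was 0 bp in 14 regions.

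**Figure D1:**
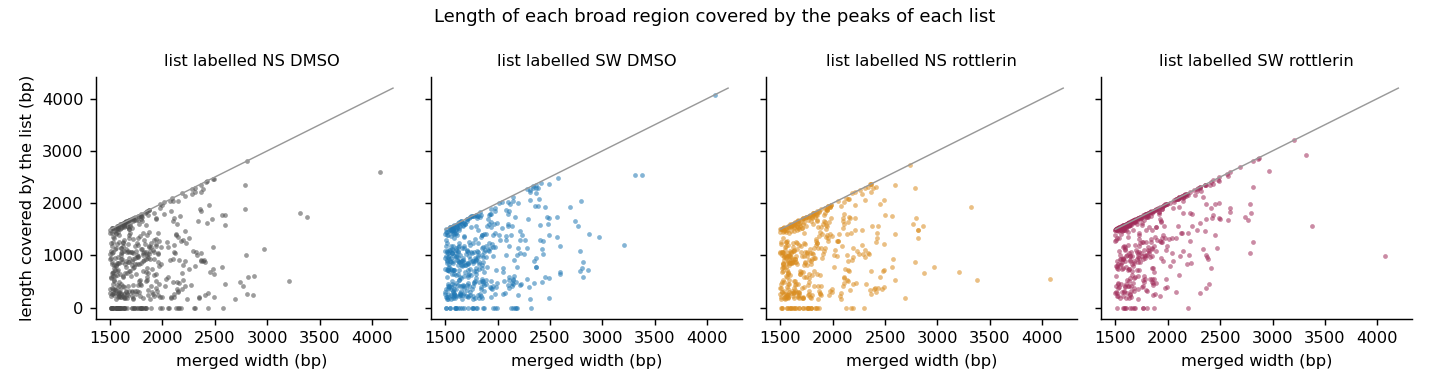
Each point is 1 of the 472 broad regions, with its merged width in bp on the x axis and the length covered by the peaks of 1 list in bp on the y axis, and points on the grey line are covered over their whole width. The SW rottlerin list holds the most points on the line (median 87.5% covered), and points at 0 bp have no peak in that list.

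A shared part of 1500 bp or more remained in 24 regions. Of these, 18 lay over a coding TSS, 9 of them over the starts of at least 2 coding genes. The longest was at EOLA2 with 2196 bp, followed by the shared promoters of ZFP91 and LPXN (2148 bp), of ACTR1A and SUFU (2036 bp) and of NFYA and OARD1 (1994 bp). ZFP91 is a ubiquitin ligase of the NF-κB pathway, ACTR1A a dynactin subunit and NFYA a subunit of the factor that binds the CCAAT box. SIN3A, a scaffold of histone deacetylase complexes, followed with 1987 bp. By contrast, in the 3379 bp region of PTPRC the lists covered 1741, 2538, 540 and 1556 bp and shared 395 bp, and in the ZFP36L1 region they covered 514, 1208, 679 and 3209 bp and shared 480 bp (lists in the order NS DMSO, SW DMSO, NS rottlerin and SW rottlerin here and below). The bars drawn for 8 regions show both kinds.

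**Figure D2:**
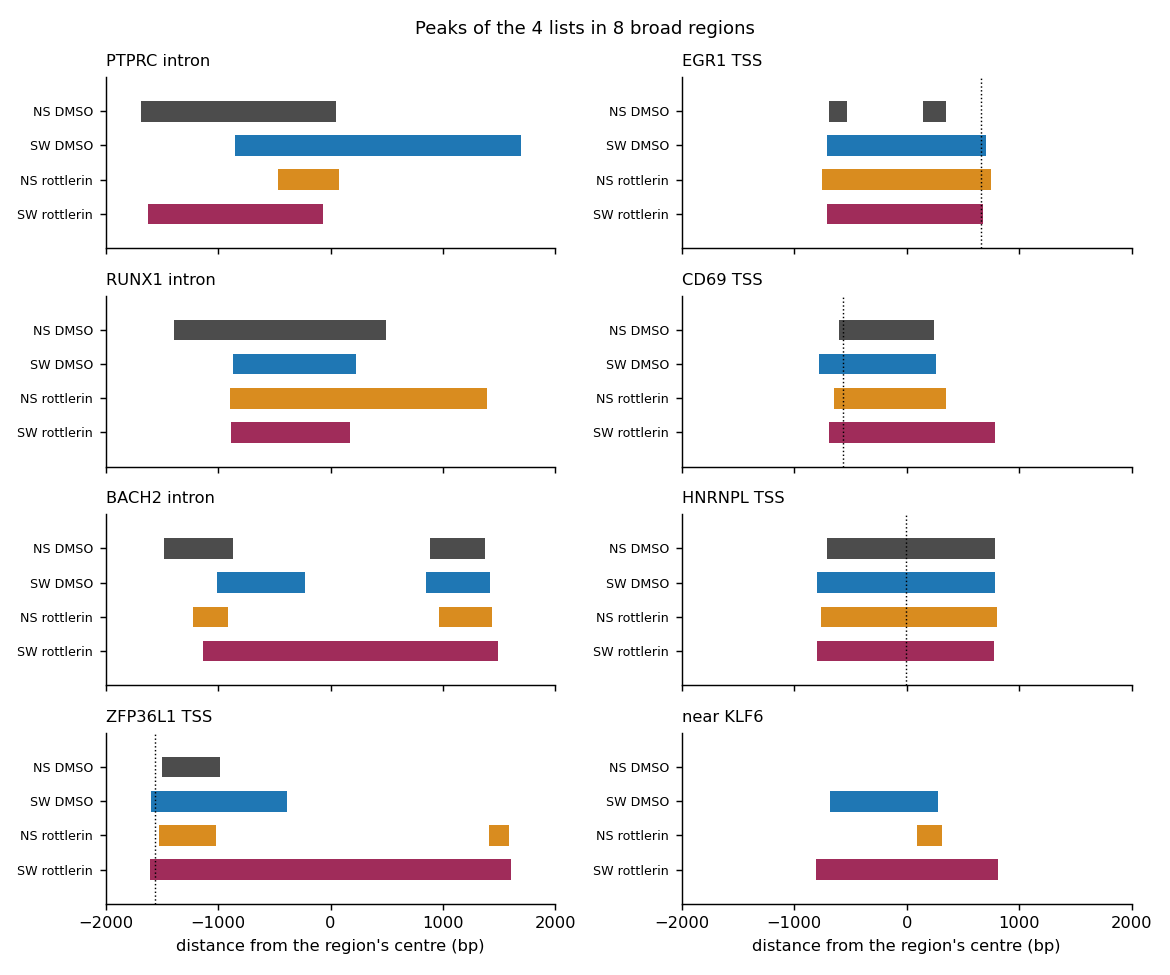
Peaks of the 4 lists in 8 broad regions, drawn as bars by distance in bp from the centre of each region, with a dotted line at each coding TSS. At HNRNPL the 4 bars nearly coincide (shared part 1489 bp of 1599 bp), whereas at PTPRC and in the BACH2 intron they are staggered, and near KLF6 the NS DMSO list has no bar.

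Most broad regions were seen in every list. A peak was present in all 4 lists in 376 of 472 regions (79.7%, interval 75.8% to 83.0%), against 26.6% of all merged regions. The NS DMSO list had a peak in 408 (86.4%, against 46.5% of all), the SW DMSO list in 443 (93.9%, against 49.3%), the NS rottlerin list in 439 (93.0%, against 58.4%) and the SW rottlerin list in 458 (97.0%, against 74.5%). Of the 62 regions that lacked 1 list, 40 lacked the NS DMSO list, 8 the SW DMSO list, 12 the NS rottlerin list and 2 the SW rottlerin list. A further 24 regions had a peak in 2 lists and 10 in 1.

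Fold enrichment over the total input, column 7 of the lists, was taken as the highest value of a list's peaks in a region. It had medians of 4.26, 4.22, 4.46 and 4.58 in the broad regions against 4.06, 4.03, 4.08 and 4.03 in all merged regions, and its lowest value was 1.89. Regions with high values lay at genes of varied kinds. At BANK1, a scaffold protein of B cells, fold enrichment was 7.47, 5.97, 6.55 and 8.60, uneven across the lists. The start shared by MBOAT7 and TSEN34, an acyltransferase and a tRNA splicing subunit, had 7.37, 7.74, 7.97 and 8.50, HNRNPL had 6.72, 7.05, 7.79 and 8.18, and CDK16 had 7.98, 8.17, 7.97 and 6.41. At the other end, 1 region had a highest value under 2.5, at chr8:43094659-43097072, with 2.07, 1.91, 2.09 and 1.89 over 2414 bp.

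Of the 472 regions, 221 (46.8%, interval 42.4% to 51.3%) lay over the TSS of a coding gene, against 19.6% of all merged regions. Among these 221, 52 (23.5%, 18.4% to 29.5%) spanned the starts of at least 2 coding genes, against 12.6% of the 7772 narrower regions over a TSS. A TSS of a long non-coding RNA was covered in 82 regions (17.4%), against 4.62% of all. Of the 251 regions with no coding TSS, 134 lay within the body of a coding gene and 197 had no coding TSS within 10 kb, and their median distance to the nearest was 32422 bp. A coding TSS thus lay within 10 kb of 21.5% of them. Among narrower regions with no coding TSS that share was 25.8%, and the median distance was 30250 bp. By mid-point, 246 regions lay in introns, 68 in 5′UTRs, 55 in other exons, 48 in promoters (the 1 kb before a TSS), 27 in intergenic sequence, 24 upstream (up to 10 kb before a TSS) and 4 in 3′UTRs. Introns and intergenic sequence together held 57.8%, below the 70.0% of all merged regions. Introns alone held 52.1% against 55.8% of all, intergenic sequence 5.72% against 14.25% and 5′UTRs 14.4% against 5.61%. The 57.8% became 42.6% when promoters were placed first in this order, and the share of all regions in that order was not computed.

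Around a TSS, the reach of a region to each side follows in part from its selection by width, and it is given as a description. Over the canonical TSS of 1 coding gene, 148 broad regions had a median of 982 bp before the TSS and 804 bp after it, against 245 bp and 75 bp in 6110 narrower regions. More of the region lay after the TSS than before it in 60 of the 148 (40.5%, 33.0% to 48.6%), against 21.5% (20.5% to 22.6%) of the narrower ones. Thus the larger part lay before the start in most of both sets, and the share of the region after it was 45.5% against 23.6% at the median.

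**Figure D3:**
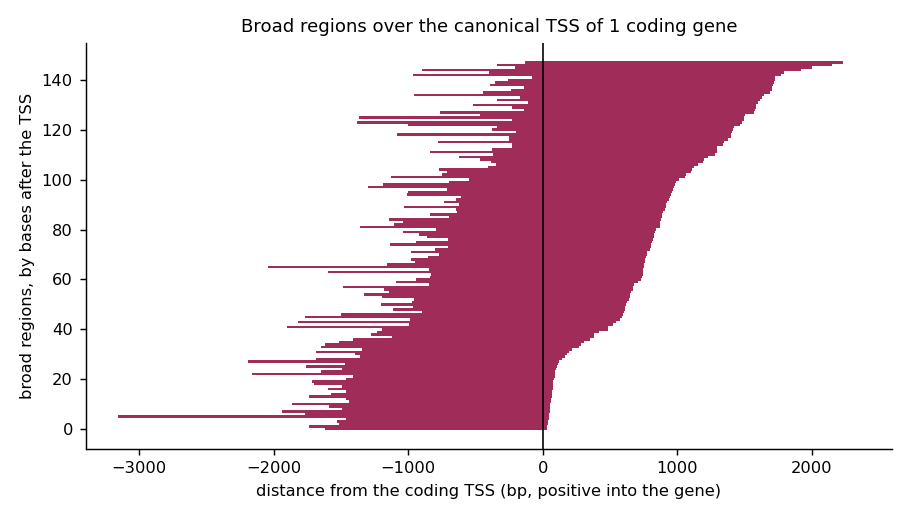
Each bar is 1 of 148 broad regions over the canonical TSS of 1 coding gene, placed by its distance from that TSS in bp, with positive values inside the gene, and bars are ordered by the bases after the TSS. The bars reach a median of 982 bp before and 804 bp after the start.

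The base composition separated regions with and without a TSS, and broad TSS regions were the poorer in CpG. Regions chosen by width reach further from the start, and their centres can lie off it. The lower CpG content therefore cannot be told apart from the selection by width. Over the whole region, median G + C was 58.5% in the 221 broad TSS regions and 64.7% in the 7772 narrower ones, and CpG dinucleotides numbered 62.5 and 81.9 per kb. In the central 300 bp, 68.8% (62.4% to 74.5%) of the broad TSS regions were CpG-island-like (G + C over 50% and observed to expected CpG over 0.6), against 83.3% (82.4% to 84.1%) of the narrower ones. Over the whole region the shares were 78.7% and 86.8%. Without a TSS, median G + C was 42.8% and 44.4%, CpG numbered 16.5 and 16.9 per kb, and 8.77% and 5.81% were CpG-island-like with intervals that overlapped (5.86% to 12.9% and 5.56% to 6.07%). Of all 472 broad regions 36.9% were CpG-island-like in the centre, against 21% of all merged regions.

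**Figure D4:**
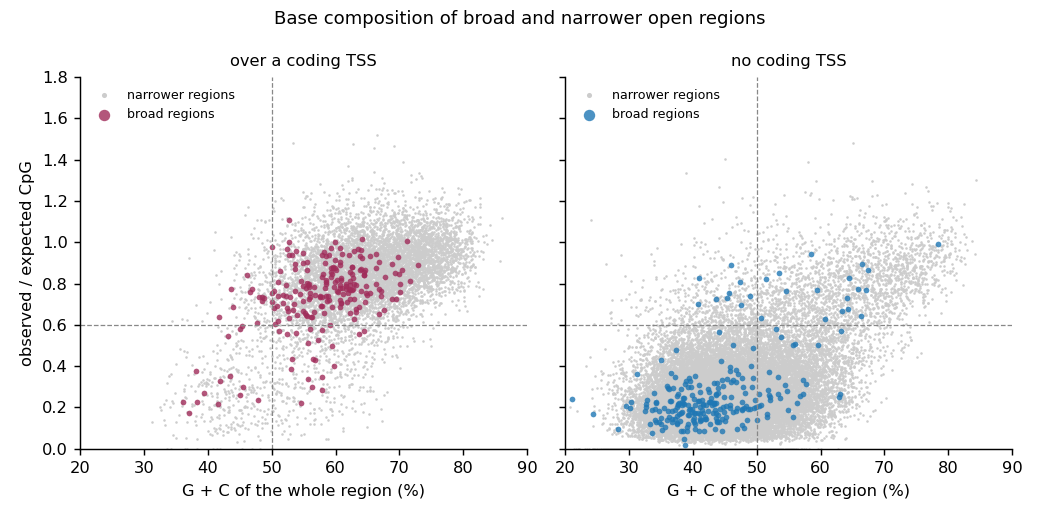
G + C in percent on the x axis and observed to expected CpG on the y axis for the whole length of each region, with broad regions in colour, narrower regions in grey and dashed lines at 50% and 0.6. Broad regions over a coding TSS lie mostly in the upper right with a median G + C of 58.5%, and those with no coding TSS mostly in the lower left with a median of 42.8%.

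Median fold enrichment was slightly above that of narrower regions in every list, over a TSS and away from one. The 221 broad TSS regions had medians of 4.51, 4.48, 4.59 and 4.76 against 4.44, 4.36, 4.46 and 4.51 in narrower TSS regions. With no coding TSS the medians were 4.02, 3.98, 4.32 and 4.44 against 3.92, 3.91, 3.96 and 3.91. Both sets of broad regions had their highest median in the SW rottlerin list. That list was also the only list with a single peak of 1500 bp or more in 139 of the 472 regions. Its higher medians therefore cannot be told apart from the selection by width. With each list's peaks averaged by width instead, broad TSS regions had 4.43 against 4.44 in the NS DMSO list. In the other comparisons the broad regions stayed above the narrower ones.

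Consensus sequences were searched on both strands, in 14 forms. In the central 300 bp, the AP1 sequence TGANTCA was present in 31 regions (6.57%, 4.66% to 9.17%) against 17.9% of all merged regions, and the RUNX sequence TGTGGTT in 32 (6.78%, 4.84% to 9.41%) against 17.7%. Counted per kb over the whole length, AP1 had 0.374 matches in broad regions and 0.657 in all, and RUNX 0.292 and 0.618. The GATA sequence AGATAA was held by 18.4% against 21% and the NFAT core TGGAAA by 24.2% against 27.9%. Of the E-boxes, CACCTG was held by 21.6% against 21.4%, CAGCTG by 12.3% against 17.1%, and the MYC form CACGTG by 7.20% against 5.67%. Of sequences common in promoters, the centres held the GC box GGGCGG in 32.6% against 22.6%, the CCAAT box (CCAAT) in 37.5% against 31.6%, the ETS sequence CCGGAAG in 5.08% against 5.94%, the NRF1 sequence GCGCANGCG in 3.81% against 3.61%, the YY1 sequence AAGATGGC in 2.33% against 2.17% and the CRE TGACGTCA in 1.06% against 0.985%. The EGR sequence GCGTGGGCG was in 0 of 472 centres, where up to 0.807% is within the interval, against 0.418% of all. Per kb over the whole length the order differed for several of these. The GC box had 2.04 matches against 1.90 in all regions and the CCAAT box 1.49 against 1.42. The ETS sequence had 0.193 against 0.258, NRF1 0.166 against 0.195, YY1 0.0684 against 0.0818 and CRE 0.0239 against 0.0362. The MYC form had 0.193 against 0.218, CACCTG 0.725 against 0.804 and EGR 0.0239 against 0.0179. Thus CRE, NRF1, YY1, the MYC form, CACCTG and EGR lay on the other side of all regions from their shares in the centre. Broad regions lay over a TSS more often, so the shares above mix both kinds of region. Within TSS regions alone, the GC box was in 57.9% of broad and 70.0% of narrower centres, and the ETS sequence in 9.50% and 19.7%. There GATA (11.3% and 4.48%) and NFAT (19.9% and 14.9%) were higher in the broad centres, with AP1 at 2.7% and 4.04% and RUNX at 3.17% and 3.82%. With no coding TSS, AP1 had 9.96% and 21.4%, RUNX 9.96% and 21.2%, GATA 24.7% and 25.0% and NFAT 27.9% and 31.1%. These are matches of letters, not sites shown to be bound. The 300 bp window was about as long as the median merged region (294 bp) but a small part of the median broad one (1758 bp). The middle of a broad region can lie off its most enriched part, and counts per kb take in its flanks. The motif differences, over a TSS or away from one, therefore cannot be told apart from the selection by width.

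A peak in both lists was needed to compare fold enrichment with the NS DMSO list, and all 3 comparisons share that list. The SW DMSO list was compared in 393 broad regions, the NS rottlerin list in 389 and the SW rottlerin list in 397. Median ratios were 0.989, 1.03 and 1.04 in the broad regions and 0.980, 1.04 and 1.06 in all regions with both peaks, so that after division by the latter they became 1.01, 0.993 and 0.983, on the other side of 1. A ratio of 1.5 or more was found in 10 regions for SW DMSO (2.54%, against 1.67% of all), 19 for NS rottlerin (4.88%, against 3.19%) and 19 for SW rottlerin (4.79%, against 4.5%). A ratio of 1/1.5 or less was found in 5 (1.27%, against 2.18%), 4 (1.03%, against 1.38%) and 5 (1.26%, against 1.54%). Every one of these background shares lay within the interval of the broad regions' own share. Of the 408 broad regions with an NS DMSO peak, 34 had a high ratio in at least 1 list and 7 a low one. Among all merged regions with that peak, 18920 in number, 943 and 534 did. These totals are not alike, since a ratio to the SW rottlerin list existed in 397 of the 408 but in 14037 of the 18920. Of the 34 high regions, 11 lay over a coding TSS (32.4%, 19.1% to 49.2%), against 17.7% of the 943. With an NS DMSO peak, 51.2% of broad and 32.4% of all merged regions lay over one. None of the 7 low regions lay over a coding TSS, against 36 of the 534 (6.74%). That share lies within the interval of the 7, which reaches 35.4%. Among broad TSS regions the count was 0 of 208 in each comparison, for which up to 1.81% is within the interval. The same share over all TSS regions was not computed. In bulk DNA, stronger enrichment in a cell cannot be told apart from accessibility in more cells.

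**Figure D5:**
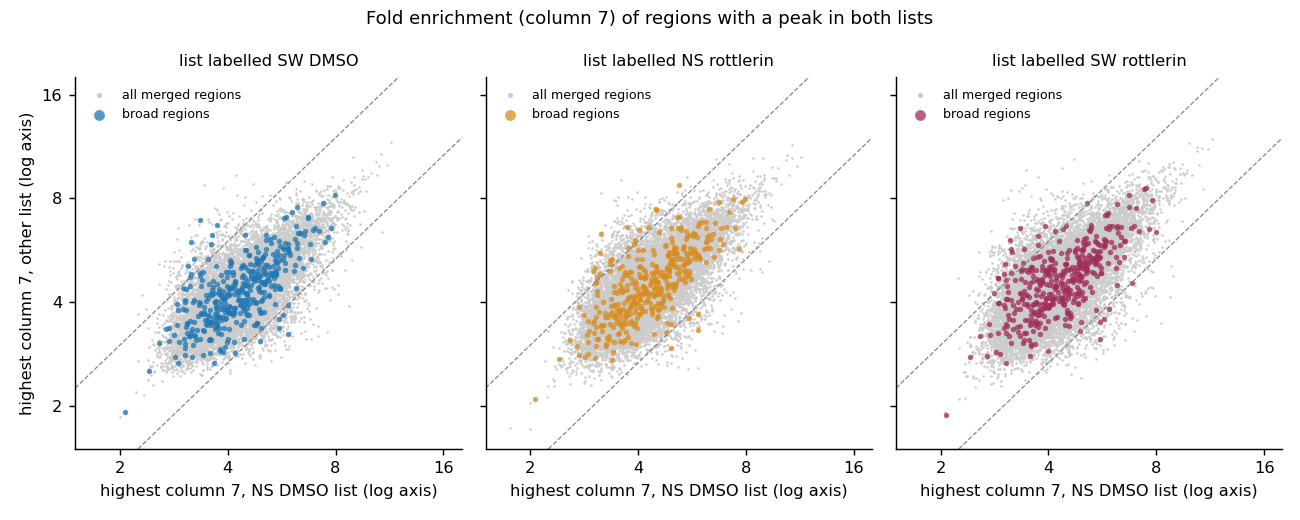
Highest fold enrichment (column 7) of each region in the NS DMSO list on the x axis and in 1 other list on the y axis, both on log axes, for regions with a peak in both. Coloured broad regions lie within the grey cloud of all merged regions apart from 1 at the lower left (near HGSNAT), mostly between the dashed lines at ratios of 1/1.5 and 1.5, with 10, 19 and 19 above the upper line.

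The highest ratios came from introns and from sequence between genes. In an intron of NLK, a kinase that acts on the Wnt and Notch pathways, fold enrichment was 3.34 in the NS DMSO list, 6.94 in the SW DMSO list, 4.92 in the NS rottlerin list and 6.54 in the SW rottlerin list, and the 4 lists shared 1497 bp of the 1923 bp. Here the NS DMSO list had the lowest value and, at 1822 bp, the longest cover. An intron of CDK6, the G1 kinase, had 3.15, 5.98, 6.30 and 4.87. In an intron of MKLN1, which encodes muskelin, the values were 3.74, 6.69, 6.60 and 6.22. An intron of MACF1, a crosslinker of microtubules and actin, had 3.14, 4.73, 5.57 and 5.70, and sequence 14818 bp from the TSS of SIGLEC6, a sialic acid receptor, had 3.13, 4.45, 4.84 and 6.05. In these 5 regions, named because their ratios were the highest, the NS DMSO list had the lowest of the 4 values.

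Regions at the low end had their mid-points in introns. Some of these were introns of transcripts outside coding genes, far from a coding TSS. In an intron of SRPK2, a kinase of splicing factors, the values were 5.90, 3.24 and 3.70 with no peak in the SW rottlerin list. A region 224673 bp from MC4R, a melanocortin receptor gene, had 5.55, 3.37, 4.93 and 3.50, and 1 that was 473335 bp from TECRL had 4.93, 3.09, 2.94 and 3.51. An intron of ANO6, a phospholipid scramblase, had 5.89, 3.92, 3.33 and 3.82. An intron of SUPT3H had 5.56, 3.56, 3.59 and 3.12, and a region 19004 bp from TMEM235 had 5.71, 3.67 and 3.58 with no peak in the NS rottlerin list. The NS DMSO value was the highest in all 6, which were named for their low ratios.

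The 64 broad regions without a peak in the NS DMSO list were mostly distal. Of these, 12 (18.8%, 11.1% to 30.0%) lay over a coding TSS, against 209 of the 408 with an NS DMSO peak (51.2%, 46.4% to 56.0%), and median G + C was 43.0% against 52.2%. All merged regions differed in the same direction, with 8.52% over a TSS without and 32.4% with an NS DMSO peak, and median G + C of 44.8% and 50.0%. The AP1 sequence was present in 39 of the 64 and in 171 of the 408, at 0.590 and 0.342 matches per kb. In all merged regions the same densities were 1.06 without and 0.348 with an NS DMSO peak. For RUNX they were 0.349 and 0.283 in the broad regions, and for the ETS sequence 0.0536 and 0.213, where all merged regions had 0.620 and 0.617 for RUNX and 0.148 and 0.343 for ETS. Broad regions with a high ratio in at least 1 list had 0.593 AP1 matches per kb (in 21 of 34 regions). Those with a low ratio had 0.678 (in 4 of 7), so AP1 matches were not particular to the high side. In all merged regions these densities were 0.811 and 0.425. The AP1 matches printed here come from broad regions with a high ratio (MKLN1, CDK6, MACF1 and SIGLEC6) or no NS DMSO peak (KLF6, IL21R, CLEC2B and B3GNT2). They are shown to let the flanks be read beside the 7 letters of the match, in capitals, with 12 bases on each side on the forward strand of GRCh37, and the matches lie at chr7:130874519-130874525, chr7:92262869-92262875, chr1:39657986-39657992, chr19:52050181-52050187, chr10:3847549-3847555, chr16:27419511-27419517, chr12:10019253-10019259 and chr2:62533071-62533077.
MKLN1: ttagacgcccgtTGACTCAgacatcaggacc
CDK6: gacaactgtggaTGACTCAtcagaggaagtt
MACF1: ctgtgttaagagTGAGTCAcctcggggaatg
SIGLEC6: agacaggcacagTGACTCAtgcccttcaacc
KLF6: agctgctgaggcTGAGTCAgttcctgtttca
IL21R: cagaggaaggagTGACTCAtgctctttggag
CLEC2B: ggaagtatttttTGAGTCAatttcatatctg
B3GNT2: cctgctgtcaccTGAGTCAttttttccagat

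The matches at MACF1, SIGLEC6 and CDK6 lay under a peak in all 4 lists, that at KLF6 in 3, and those at MKLN1, IL21R, CLEC2B and B3GNT2 in 2. Every printed match has C or G at the N of TGANTCA. Matches with A or T there, in the regions of MKLN1, CDK6, KLF6 and CLEC2B, are not printed. That of MKLN1 (chr7:130873657-130873663) lay under a peak in all 4 lists.

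The 10 widest regions that lacked a list lay mostly in introns or far from a coding TSS. In an intron of CLEC2B, a lectin gene of the natural killer gene complex, a region of 2577 bp had fold enrichment of 3.44, 3.57 and 3.98 in the other lists and none in the NS DMSO list. The start shared by EXTL2 and SLC30A7, a glycosyltransferase and a zinc transporter, spanned 2432 bp with 3.97, 3.13 and 3.84, again with no NS DMSO peak. An intron of FAM117A lacked the SW DMSO list, with 3.61, 4.68 and 3.30. A region of 2310 bp that was 116137 bp from RASA1, a RAS GTPase-activating protein gene, lacked the NS DMSO list, with 3.83, 4.32 and 3.69. A region 89352 bp from B3GNT2 had 4.39 in the SW DMSO list and 6.24 in the SW rottlerin list and no other peak. An intron of EGLN3 had 4.61 and 4.10, and an intron of TMEM131L 2.91 and 4.07, each in the NS and SW rottlerin lists. Peaks of 1 list alone made up regions in introns of TBC1D5 (NS DMSO, 3.10 over 2190 bp), ATXN1 (SW rottlerin, 4.50 over 2173 bp) and SLA, an adaptor that damps T cell receptor signals (SW rottlerin, 4.17 over 2126 bp).

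Broad regions were then counted at fixed gene lists, by a broad region within 1 kb of a coding TSS of the gene, or by the gene being the nearest to a broad region with no coding TSS. Over all 19785 coding genes, 288 (1.46%) had the first and 231 (1.17%) the second. These lists were set with earlier results of these data known, and a gene with a long intron or a gene-poor neighbourhood has more room for a distal region, so the counts describe the genes and no list is called different from the rest.

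T cell receptor signalling genes had 0 of 15 broad promoters and 4 of 15 distal broad regions, at PTPRC, PRKCQ, LAT and THEMIS. Within introns of PTPRC lay 3 regions. The first, of 1605 bp, had no NS DMSO peak and 3.49, 3.34 and 4.50 in the other lists. The second, of 1886 bp, had 5.78, 4.96, 6.32 and 6.0, and the widest, of 3379 bp, had 6.56, 6.42, 6.78 and 6.0. The second and the third were thus high in every list, and the first was absent from 1. PRKCQ encodes protein kinase C theta, and an intron of its gene held 1722 bp with 5.08, 4.83, 5.57 and 5.89. A second region, of 1896 bp, was 346676 bp from its TSS, with 4.98, 4.56, 4.42 and 5.66. Near LAT, the membrane adaptor that gathers signalling proteins at the receptor, 1699 bp had 4.80, 5.80, 5.87 and 5.75. THEMIS, a regulator of thymocyte selection, held 1760 bp in an intron, seen in the SW DMSO list alone at 3.37. Genes of the T cell receptor and CD3 complex had a broad region of either kind in 0 of 12. A merged region of any width lay within 1 kb of a TSS in 7 of 12, against 50.0% of all coding genes.

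Of 28 transcription factors of the T lineage and of leukaemia, 1 had a broad region at a TSS and 7 were nearest to a distal one. RUNX1, a core factor of T cell development, held 2785 bp in an intron with 4.70, 4.00, 4.03 and 4.23, and the lists covered 1886, 1089, 2284 and 1056 bp. The values of RUNX1 lay close together, with the NS DMSO list the highest. ELF1, an ETS factor, held 2784 bp in an intron with 4.48, 4.48, 7.46 and 5.18, and a further 1548 bp ended 120 bp from a TSS. A region of 2426 bp was 190260 bp from LEF1, the Wnt effector of early thymocytes, with 4.91, 3.74, 4.12 and 3.30. MYB, a factor of progenitor growth, was nearest to 2409 bp within AHI1, with 4.93, 4.76, 6.54 and 5.65. Introns of ERG and ETV6, both ETS factors, held 1995 and 1865 bp, and an intron of TCF12, which encodes the E protein HEB, held 1679 bp. ERG had no SW DMSO peak, with 3.81, 4.91 and 4.64, and TCF12 no NS rottlerin peak, with 3.19, 3.01 and 3.34.

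The early response transcription factors, which cells induce within the first hours of a stimulus, had 2 of 32 with a broad region at a TSS, EGR1 and IER2, and 2 of 32 nearest to a distal one, JUND and KLF6. At EGR1 (chr5:137799755-137801255) fold enrichment was 3.55 in the NS DMSO list, 4.53 in the SW DMSO list, 4.34 in the NS rottlerin list and 4.99 in the SW rottlerin list. The NS DMSO value was the lowest, and its 2 peaks covered 369 bp of the 1501 bp, against 1413, 1501 and 1385 bp in the others. IER2, an early response gene, had 3.95, 4.89, 4.52 and 4.53 with 1401 to 1570 bp covered in every list. Near JUND, an AP1 subunit, the NS DMSO list had no peak and the others 5.95, 4.29 and 4.06. A region 19093 bp from KLF6, a zinc finger factor, also lacked the NS DMSO list, with 3.35, 4.46 and 4.30.

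Feedback inhibitors, which turn signals or mRNAs down after activation, had 1 of 27 with a broad TSS region and 6 of 27 nearest to a distal one. At ZFP36L1 the TSS region had 4.20, 4.60, 4.78 and 4.64, and a second region of 2409 bp, 10641 bp away, had 4.19, 4.51, 4.39 and 4.47. DUSP10, a phosphatase of p38 and JNK, held 2435 bp in an intron with 5.07, 4.56, 5.05 and 5.01, values within 1.5 times of each other, although the covered lengths were 279, 1029, 381 and 2435 bp. A second region of 2051 bp, 34739 bp from the gene, had no NS DMSO peak and 4.11, 4.81 and 4.99 in the others. DUSP6, a phosphatase of ERK, was nearest to 3 regions, each 68755 bp or more from its TSS. The widest of these had 6.52, 6.27, 5.41 and 6.03. NFKBIA, which encodes the NF-κB inhibitor IκBα, was nearest to 1713 bp with no NS DMSO peak and 4.53, 3.23 and 5.41. SPRY1, an inhibitor of receptor kinase signals, had 3.60, 3.11, 4.40 and 5.06 at 46316 bp, and ZFP36L2 had 5.24, 6.12, 4.95 and 5.41 at 88691 bp.

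The list of cytokines, chemokines and receptors also held the activation marker CD69. Of its 39 genes, 1 had a broad TSS region, CD69, and 4 were nearest to a distal one, CD69 among them. At the CD69 start (chr12:9913278-9914841) fold enrichment was 3.35, 4.76, 5.32 and 4.91 and the covered length 848, 1045, 994 and 1476 bp. The NS DMSO list had the lowest value and the shortest cover. A second region of 1518 bp, 8799 bp from that start, had no NS DMSO peak and 3.50, 3.63 and 3.96 in the others. IL21R, the interleukin 21 receptor, held 1786 bp in an intron with no NS DMSO peak and 3.76, 3.92 and 4.30. A region 50968 bp from TNFSF10, which encodes the death ligand TRAIL, also lacked it, with 5.56, 4.17 and 5.99. At 13997 bp from IL4, a type 2 cytokine gene, 1627 bp had 4.28, 4.05, 6.60 and 6.04, so that both rottlerin lists were above both DMSO lists. Survival and cell cycle genes had 1 of 17 of each kind, BCL2L1 (the survival factor BCL-XL) at its start with 4.89, 5.13, 4.94 and 5.29, and MAX, the partner of MYC, at 102867 bp with 2.88, 3.94 and 4.69 and no NS rottlerin peak.

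Broad promoters were most frequent by count among the replication-dependent histone genes, 6 of 12, which lie close together on chromosome 6 and share regions between neighbours. H1-2 had a region of 2106 bp with 3.87, 3.62, 4.03 and 4.24. The start of H2BC5 lay in 1873 bp with 4.07, 5.30, 4.74 and 4.60, and the shared start of H2AC6 and H2BC4 in 1788 bp with 4.38, 4.35, 4.58 and 4.83. The pair H2AC12 and H2BC12 had 4.48, 5.05, 5.06 and 5.16. The lists stayed within 1.5 times of each other at all of these.

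Housekeeping genes had 4 of 27 with a broad TSS region. EEF1A1, the elongation factor that brings tRNA to the ribosome, had 2023 bp with 4.96, 4.56, 5.57 and 4.28, and POLR2A, the large subunit of RNA polymerase II, had 1849 bp with 3.21, 3.50, 3.43 and 3.73. At TUBA1B, 1799 bp had 3.04, 2.95, 4.57 and 4.65, a ratio of 1.50 and 1.53 to the NS DMSO list in the rottlerin lists. The last such gene was HNRNPA1, a splicing factor. Chromatin regulators had 4 of 26 with a broad TSS region (BRD2, CHD4, EED and RAD21) and 2 of 26 nearest to a distal one (ARID1A and KDM6B). KDM6B, which removes methyl groups from histone H3 lysine 27, held 2693 bp in an intron with 3.14, 3.53, 3.44 and 4.06, and the lists covered 172, 1920, 194 and 2693 bp. RAD21, a cohesin subunit, had 2487 bp with 5.06, 3.74, 4.46 and 4.12. EED, a Polycomb subunit, had 1792 bp with 2.74, 3.08, 2.81 and 3.21, and CHD4, a remodelling ATPase, 1770 bp with 3.62, 4.33, 4.31 and 3.92. BRD2, a bromodomain protein, had 2 regions, of 1761 and 1525 bp.

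Some broad regions stood in groups. Another broad region lay within 100 kb in 74 of the 472, and 8 stretches held 3 or more. Neither count was taken for an equal number of other regions, so grouping is not read as particular to broad ones. The stretch with most was that of the histone genes, chr6:26026105-26206422, with 5 broad regions among 19 merged regions. Stretches of 3 lay in PTPRC (chr1:198617821-198653090, among 5 merged regions) and NEK7 (chr1:198125353-198160217, among 14), which encodes a mitotic kinase also needed for the NLRP3 inflammasome. Others lay at NAB2 and STAT6 (chr12:57457174-57506335), a corepressor of EGR1 and the factor that answers interleukin 4, and near DUSP6 (chr12:89629248-89676193). ELF1 (chr13:41554694-41635704), ID1 with BCL2L1 (chr20:30191999-30311947) and HIVEP2 (chr6:143163641-143266539) had the remaining ones. ID1 encodes an inhibitor of E proteins and HIVEP2 a zinc finger factor. In HIVEP2, 1 region of 1895 bp had no NS DMSO peak and 2.79, 3.58 and 4.97 in the others, and those of 2454 bp and 1721 bp had an NS DMSO peak, at 3.08 and 3.83.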

How the data were processed

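FAIRE-seq peak lists of 4 Jurkat samples were used. According to the study's methods, adapters were trimmed with CutAdapt, reads were mapped with Bowtie2 (build hg19), duplicates were discarded using Picard, and MACS2 called peaks in the DMSO samples (q-value limit of 0.05) with its broad option and the total input as control; how lists labelled rottlerin were called is not given there. Tool versions are not given in the sources used here. For every peak the deposited lists hold a score, in which the −log10 q-value is multiplied by 10 and its decimals dropped, a fold enrichment (a ratio to the input), and −log10 p-values and q-values. The broad option links nearby enriched stretches, so widths depend on its settings.

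Peaks that overlapped or touched were merged, and regions of 1500 bp or more kept. The members, gene lists and motifs were chosen with earlier results of these data known. Genes came from GENCODE 44 on GRCh37 (the hg19 build), as did the sequences. A mid-point was assigned to a UTR first, 5′ before 3′, and after that, in order, to exons, introns, promoters, sequence up to 10 kb upstream or, failing these, intergenic sequence. By rule the text named the 10 widest regions, the 5 with the highest fold enrichment, 3 on each side of the width limit, the 10 widest lacking a list, the 3 highest and the 3 lowest ratios per list, the 5 widest far from a TSS and up to 4 per gene list. A few regions that the rule names are not reported here. Further regions (those with a long shared part, other regions of listed genes, stretches and the printed matches) were chosen after their values were seen. Python 3.11.15, pandas 2.3.3, scipy 1.17.1 and pysam 0.24.0 were used, and the steps were checked on simulated data. Alternatives changed the minimum width, the merging, the q limit, the number of peaks per list, the chromosomes, the lists included, the order of annotation, the centring of ratios and the motif window.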

Additional observations from a re-analysis of the deposited data

Results flagged for a closer look

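Merged regions of 1500 bp or more also occurred outside the chromosomes described, in sequence that no comparison used. The mitochondrial genome held 3, of 3760, 1781 and 6056 bp, with fold enrichment over the input between 1.48 and 2.15 in the 4 lists. Contigs that are unplaced or not located on their chromosome held 3 more, of 4846, 2358 and 2350 bp, with fold enrichment between 3.26 and 4.08. All 6 had a peak in every list. Of the 472 regions on the chromosomes, 1 had a highest value under 2.5, that near HGSNAT.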

How the results depend on the processing

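Of 233 values under alternatives, over 35 results, 198 stayed, 33 moved and 2 turned direction. A value stayed if it lay within the interval of the value given or, for a number of regions, within 1.5 times of it. A minimum width of 1000 bp gave 2141 regions, with a peak in 78.5% (NS DMSO), 85.9% (SW DMSO) and 89.8% (NS rottlerin), median fold enrichment of 4.29 (NS rottlerin) and 4.41 (SW rottlerin), and a ratio of 1.5 or more in 2.91% (NS rottlerin). A minimum of 2000 bp gave 118 regions, with a peak in 91.5% (NS DMSO), 96.6% (NS rottlerin) and 99.2% (SW rottlerin), median fold enrichment of 4.39 (SW DMSO), a high ratio in 2.80% (SW rottlerin) and a low ratio in 0.0% for each list. Requiring a single peak of 1500 bp gave a low ratio in 0.312% (SW rottlerin). With 18977 highest-scoring peaks from each list, a peak was present in 89.7% for each of the rottlerin lists, with medians of 4.62 (NS) and 4.84 (SW), and the low ratio for NS rottlerin fell to 0.0%. Ratios divided by the median of all regions had medians of 1.01, 0.993 and 0.983, the last 2 turned below 1, and high ratios in 2.83% (NS rottlerin) and 2.77% (SW rottlerin). Placing promoters first gave 42.6% in introns or intergenic sequence. Leaving out 1 list at a time gave 287 to 415 regions, the fewest without the SW rottlerin list, and shares of 86.7% to 91.6% with an NS DMSO peak and 96.9% to 99.0% with a SW rottlerin peak. For motifs, 4 ratios of shares moved when counted per kb. Fewer lists and stricter limits leave fewer bases to merge by construction, and other causes were not tested. No paired analysis was possible because each group has 1 library. Read depth is unknown, so a missing peak cannot be told apart from a shallower library.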

Other observations

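Broad regions were unevenly spread over chromosomes. Chromosome 9 held 2 among its 1426 merged regions (0.140%, interval 0.0385% to 0.510%), against 1.16% of all merged regions. They lay near TNFSF8, a cytokine gene of the TNF family, and in an intron of GNAQ, a G protein subunit gene. At a limit of 1000 bp chromosome 9 held 57 of the 1426 (4.00%), against 5.26% of all merged regions and 3.96% on chromosome 20. Chromosome 6, with the histone genes, held 53 among 2741 (1.93%, 1.48% to 2.52%). The chromosome was singled out after the values were seen, and copy number in this line was not examined.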
